A study of Homo sapiens with 20 samples.

Results

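Unprocessed pseudogenes are defunct gene copies that arose by duplication of DNA, so they can keep the introns and the surroundings of the gene they came from. The class also takes in pieces of the mitochondrial genome that were inserted into the chromosomes, which are named after the mitochondrial gene they resemble. Such nuclear copies differ from mitochondrial DNA (mtDNA) by the substitutions gathered since their insertion, and a young copy can be nearly identical to mtDNA over stretches longer than a sequencing read. Members were the genes of GENCODE release 44 with the gene type unprocessed_pseudogene, of which 2609 are annotated and 2451 had values, among 57536 genes of every type with values. The other 158 had no matched transcript. Of the 2451 members, 165 bear the name of a mitochondrial gene, and 2286 do not. The second set included 2 members whose symbol also starts with MT but which are named after nuclear genes, MTARC2P1 and MTX1P1.

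The RNA came from NGP, an established human neuroblastoma line, which makes the whole experiment a model of 1 cell line. The cells were grown in 6-well plates and given racemic nutlin-3 at 8 µM (nutlin, 10 samples) or ethanol alone (vehicle, 10 samples). Nutlin-3 blocks the binding of MDM2 to the tumor suppressor p53. MDM2, itself a p53 target gene, was at 187 to 279 CPM (library counts scaled to equal depth) in vehicle and 4544 to 5700 CPM in nutlin. The sympathetic neuroblast markers PHOX2A, HAND2, GATA3, ISL1, DBH, TH and MYCN each had a mean of at least 57.7 TPM, a level that accounts for transcript length and depth, in vehicle. Of the 7 markers of other cell types, 6 had means between 0.0645 and 1.25 TPM in both conditions, and the fibroblast collagen gene COL1A1 had 2.40 ± 0.49 TPM (SD, n = 10) in vehicle and 8.15 ± 1.22 in nutlin. Libraries of polyadenylated RNA held between 14455477 and 19532971 estimated read-pair counts, of which 96.7% to 96.8% in vehicle and 95.7% to 95.9% in nutlin were on transcripts matched to the annotation. CPM here are TMM-normalised, except in the ratios of pseudogene to parent. LFC is the log2 fold change of nutlin against vehicle with its standard error (SE).

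The class took 3.10% ± 0.195 (SD, n = 10) of a vehicle library's matched counts and 2.49% ± 0.130 of a nutlin library's, and almost all of this lay on 7 neighbouring copies of mitochondrial genes in 1 block of chromosome 1. The block runs from MTND1P23 to MTCO3P12 at chr1:629062-634922 (GRCh38). It held 98.0% of the class's counts over all 20 samples, at a mean of 446410 counts per sample. The remaining 158 mitochondrial copies held 0.191% (869 counts per sample), and the 2286 members without a mitochondrial name held 1.78% (8101 counts per sample).

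The start of the MT-CO1 coding sequence, which encodes subunit 1 of cytochrome c oxidase, shows how closely these copies resemble mtDNA. Below are its first 100 bases at chrM:5904-6003 and the matching stretch of 3 nuclear copies, MTCO1P12 of the block at chr1:631074-631173, MTCO1P2 at chr14:32484701-32484800 on the minus strand, and MTCO1P11 at chr9:5096666-5096765. They were chosen because these 3 hold the most counts among the members named after this gene. Capitals mark bases that do not align to an identical base of the mtDNA gene.
MT-CO1: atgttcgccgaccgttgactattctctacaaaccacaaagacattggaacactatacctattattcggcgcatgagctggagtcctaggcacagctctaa
MTCO1P12: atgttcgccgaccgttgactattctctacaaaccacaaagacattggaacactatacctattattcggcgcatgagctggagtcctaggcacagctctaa
MTCO1P2: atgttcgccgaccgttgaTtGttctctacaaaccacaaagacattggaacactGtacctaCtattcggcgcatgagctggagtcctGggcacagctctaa
MTCO1P11: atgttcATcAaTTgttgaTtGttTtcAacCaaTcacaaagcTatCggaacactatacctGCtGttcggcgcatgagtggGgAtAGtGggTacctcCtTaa
Over this window 0 bases were so marked in MTCO1P12, 5 in MTCO1P2 and 24 in MTCO1P11. Bases of mtDNA that are missing from a copy are not marked or counted. A read of 75 nt, the length sequenced here, could lie wholly within the identical part of MT-CO1 and MTCO1P12.

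The 7 copies of the block resembled mtDNA far more closely than the others did. Their identity to the mtDNA gene of the same name ran from 96.8% (MTND1P23) to 98.6% (MTCO1P12), and between 30.5% and 75.4% of their 31-mers, the word length with which kallisto matches reads, also occur in mtDNA. In 6 of the 7, the longest run without a difference was at least as long as a 75 nt read, with 266 bases in MTND2P28 and 243 in MTCO1P12. The exception was MTATP8P1 with 62 bases. Among the other 158 copies, the median identity was 74.5%, 0 had an identical run of a read's length, and 151 shared no 31-mer with mtDNA. The closest of them was MTCO1P2 at 92.1%, followed by a copy at 83.8% with a mean of 0.10 counts.

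Of the 37 genes annotated on mtDNA, 0 had a value among the matched transcripts, so the copies could not be set against the mtDNA genes themselves. Whether the authors' kallisto index held mtDNA transcripts is not given in the sources used here, and the part that reads of mtDNA transcripts have in the counts and LFC of the copies was not tested. Where a copy and mtDNA are identical, reads of mtDNA transcripts and reads of the copy cannot be told apart, and the counts below are those assigned to the copy. Genes of other types with the same kind of mitochondrial name, 226 in number, took 0.853% ± 0.0681 (SD) of vehicle counts and 0.655% ± 0.0326 of nutlin counts. The members held 78.5% of all counts on the 391 genes with such names.

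**Figure D1:**
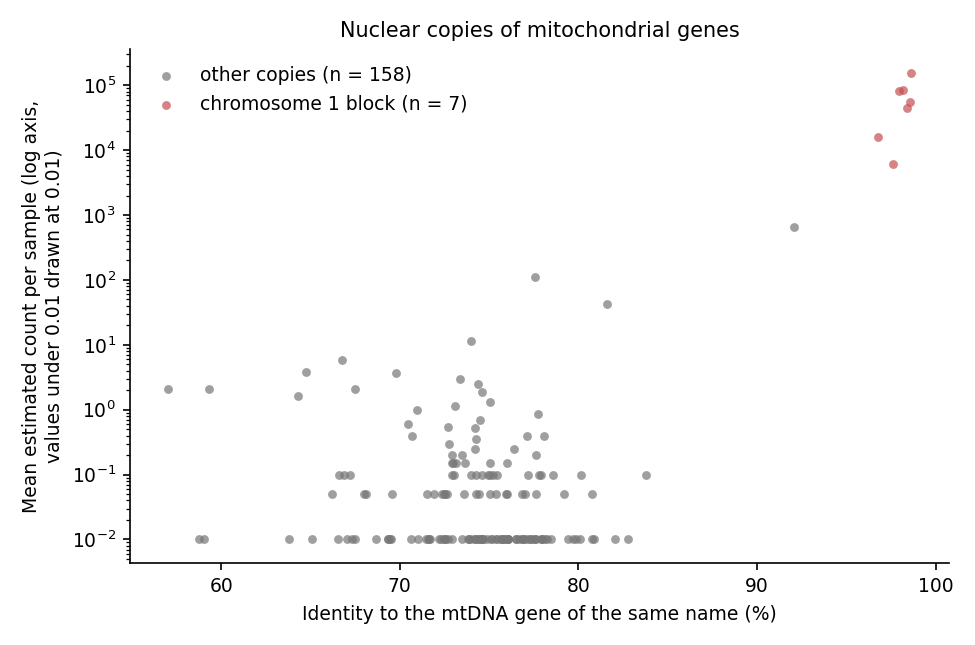
Mean estimated count per sample (log axis, values under 0.01 drawn at 0.01) against percent identity to the mtDNA gene of the same name, for 165 nuclear copies of mitochondrial genes. The 7 copies of the chromosome 1 block lie above 96% identity and above all other copies in counts, MTCO1P2 lies at 92.1% with 662 counts, and the other 157 lie under 85%.

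Below the block the counts fell away steeply. Only 4 of the 158 remaining copies had a mean of at least 10 counts per sample, 141 had a mean under 1, and 80 had no count in any of the 20 libraries. Across all 165 copies the rank correlation of identity with mean count was 0.0252, and it was −0.120 without the block, as a description across genes that share their libraries. The copies with the highest identity were also the most abundant, but among the rest no such order was seen. The copies derive from 13 mtDNA genes, most often MT-CO3 with 21 copies and MT-CO1 with 18, and the 7 of the block are 1 copy each of MT-ND1, MT-ND2, MT-CO1, MT-CO2, MT-ATP8, MT-ATP6 and MT-CO3, in the order these genes have in mtDNA.

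After nutlin, the share of a library on the mitochondrial copies was lower and that on the other members was higher. The mitochondrial copies took 2.75% to 3.32% of vehicle counts (median 3.10%) and 2.27% to 2.71% of nutlin counts (median 2.43%). The highest nutlin sample lay below the lowest vehicle sample. The difference of the means was −0.636 percentage points, a fall by 20.7% of the vehicle mean (permutation test, 100000 resamples, two-sided, p = 1e-05, the smallest these resamples can give, adjusted p = 1e-05 over 4 shares).

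The other members took 0.0366% to 0.0423% of vehicle counts (median 0.0390%) and 0.0572% to 0.0679% of nutlin counts (median 0.0618%). Here each nutlin sample lay above each vehicle sample. The mean rose by 58.6% (permutation p = 1e-05, adjusted p = 1e-05). Within the class, mitochondrial copies fell from 98.7% ± 0.0953 of the counts to 97.5% ± 0.199, again without overlap of the groups (permutation p = 1e-05). As the abundant copies fell and the rare members rose, the direction for the class as a whole was that of the block. Without its 7 copies, the class rose from 0.0450% to 0.0671% of a library.

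**Figure D2:**
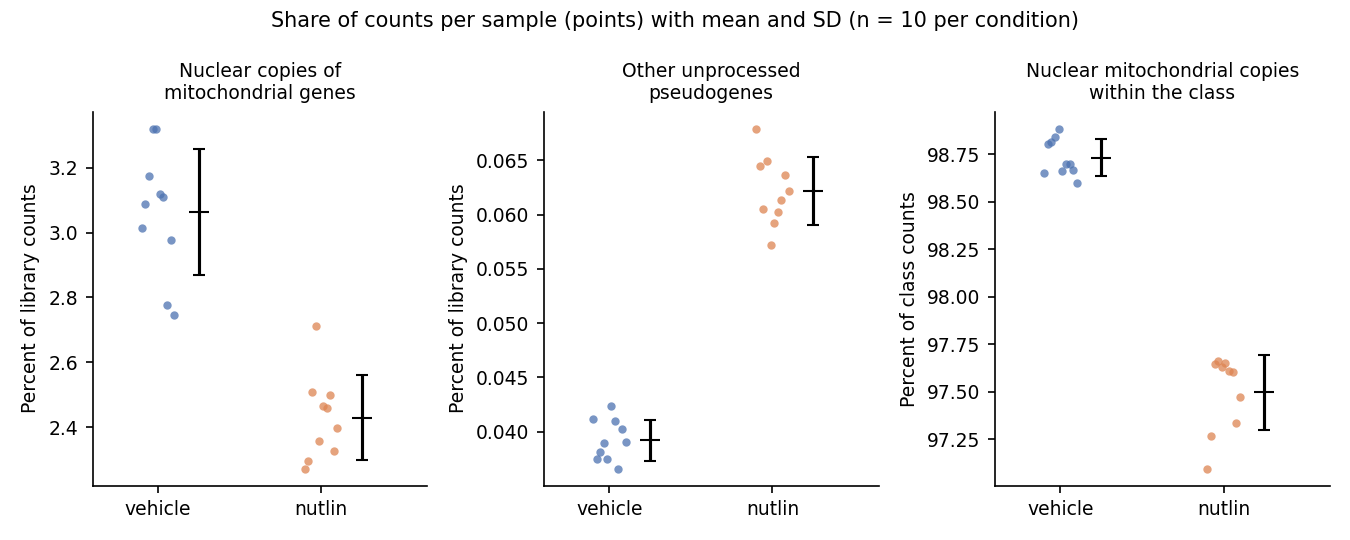
Percent of each library's matched counts on nuclear copies of mitochondrial genes (left) and on other unprocessed pseudogenes (middle), and percent of the class's counts on the mitochondrial copies (right), for 10 vehicle and 10 nutlin samples, with mean and SD. The 2 conditions do not overlap in any panel: the left and right panels are lower after nutlin and the middle one is higher. The vertical axes do not start at 0.

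The copies of the block are named after subunits of complex I (MTND1P23, MTND2P28), of cytochrome c oxidase (MTCO1P12, MTCO2P12, MTCO3P12) and of ATP synthase (MTATP8P1, MTATP6P1). Relative to length, MTCO3P12 had the highest level in vehicle, at 18108 ± 1110 TPM, then MTCO2P12 at 12560 ± 802. MTCO1P12 (8792 ± 588) and MTATP6P1 (8730 ± 814) did not differ beyond their spread. MTATP8P1 (7281 ± 1140) and MTND1P23 (6257 ± 386) followed, within 1 SD of MTATP8P1 of each other, and MTND2P28 was lowest at 3980 ± 327.

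All 7 were significantly differentially expressed (SDE) at 5% FDR and all were lower in nutlin. For comparison, 49.2% of the 36016 genes of every type tested were SDE, 27.9% being higher and 21.4% lower in nutlin. The 2 groups did not overlap in 23.4%, with nutlin higher in 10.1% and lower in 13.3%. All 7 copies had a mean over 100 counts. Of the 11077 genes above that mean, 83.7% were SDE, 28.2% being higher and 55.4% lower in nutlin. The groups did not overlap in 6327 of these genes, with nutlin lower in 4374. MTCO1P12, with the most counts, had 9946 to 12239 CPM in vehicle (median 11038) and 7559 to 9281 in nutlin (median 8330). Its groups did not overlap, and its LFC was −0.44 (SE 0.04, edgeR quasi-likelihood test, adjusted p = 1.43e-10). MTND1P23 had 1114 to 1352 CPM in vehicle (median 1257) and 686 to 801 in nutlin (median 752). The groups lay well apart, and this copy had the most negative LFC of the block, −0.72 (SE 0.04, edgeR, adjusted p = 1.23e-16). MTATP8P1 alone had overlapping groups, with 330 to 541 CPM in vehicle (median 482) and 246 to 346 in nutlin (median 305). Its LFC was −0.61 (SE 0.07). It overlaps MTATP6P1 on the same strand, as MT-ATP8 overlaps MT-ATP6 in mtDNA. The LFC was −0.66 for MTCO3P12, −0.64 for MTATP6P1, −0.55 for MTCO2P12 and −0.45 for MTND2P28.

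**Figure D3:**
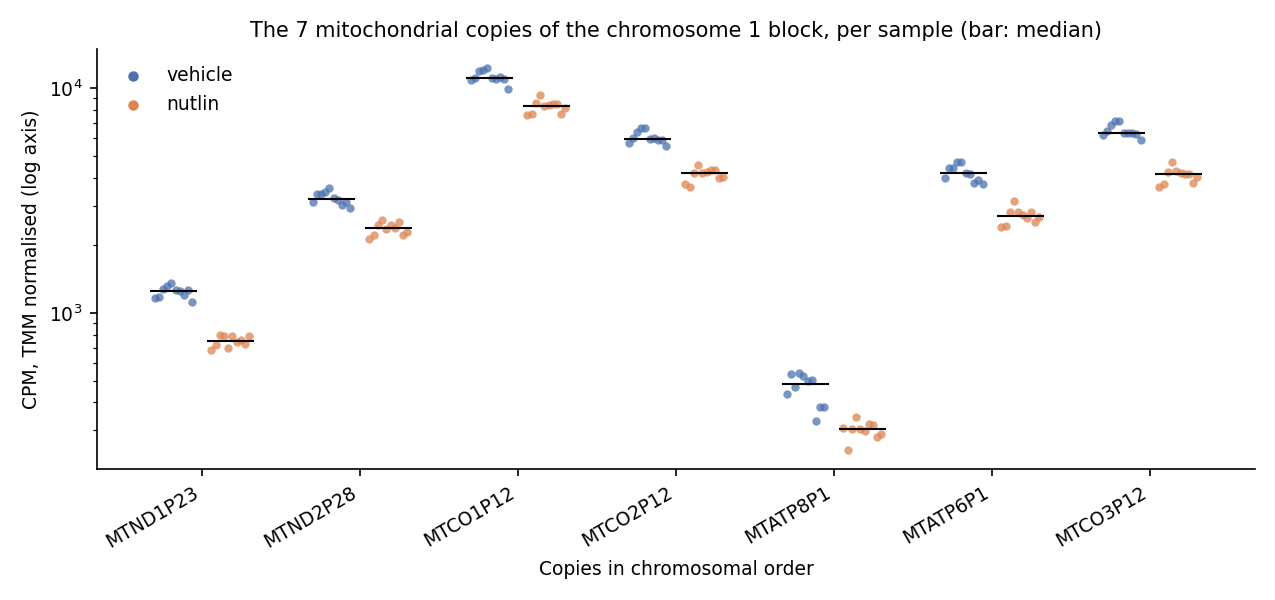
CPM per sample (log axis) of the 7 mitochondrial copies of the chromosome 1 block in chromosomal order, 10 vehicle and 10 nutlin samples each, with the median as a bar. Each copy is lower in nutlin, and the groups overlap for MTATP8P1 alone.

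The copies did not fall by the same amount, a comparison added after their values were seen. MTCO1P12 made up 33.5% to 35.2% of the block's counts in vehicle and 36.1% to 37.1% in nutlin. Its share of the block thus rose in every nutlin sample, by 2.45 percentage points on average (permutation test, adjusted p = 1.75e-05 over 7 copies). The share of MTND2P28 rose by 0.619 points, while that of MTCO3P12 fell by 1.60, of MTATP6P1 by 0.809 and of MTND1P23 by 0.443 (permutation tests, adjusted p between 1.75e-05 and 0.00014). MTCO2P12 (−0.166 points, permutation p = 0.249) and MTATP8P1 (−0.0601 points, permutation p = 0.351) did not pass the test.

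Outside the block, 40 copies had at least 1 count in each condition and could be tested, and 7 of them were SDE, all lower in nutlin. MTCO1P2 on chromosome 14, within the span of AKAP6 but on its opposite strand, had 37.5 to 58.2 CPM in vehicle (median 48.0) and 29.0 to 40.0 in nutlin (median 34.6). The groups overlapped slightly, with an LFC of −0.44 (SE 0.07, edgeR, adjusted p = 5.04e-06). AKAP6 itself, which encodes an anchoring protein of protein kinase A, rose (LFC 1.71). Of the 31-mers of MTCO1P2, 8.47% also lie in MTCO1P12, and 6.98% occur in mtDNA.

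MTCO1P11, which lies within the span of the kinase gene JAK2 on the same strand, had 6.29 to 9.22 CPM in vehicle (median 7.83) and 4.45 to 6.87 in nutlin (median 5.97). Its LFC was −0.44 (SE 0.09, edgeR, adjusted p = 1.43e-04), whereas JAK2 had an LFC of 0.45 (SE 0.09). MTND2P13 on chromosome 17 had an LFC of −0.53 (SE 0.15) and MTND5P29 on chromosome 2 of −1.11 (SE 0.22). The other 3 that fell, MTND5P7, MTND5P25 and MTCO3P29, had totals of 46.5, 21 and 7 counts over the 10 vehicle libraries and of 14, 5 and 1 over the 10 nutlin libraries, and MTCO3P29 was at the edge of the threshold (edgeR, adjusted p = 0.0499), losing its call in 13 of 20 fits that left out 1 sample. In all, 14 of 47 tested mitochondrial copies fell and 0 rose. This is 29.8% of those tested, beside the 21.4% of all genes that fell. The median LFC was −0.16 for the 47 copies and 0.22 for all genes tested.

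The members without a mitochondrial name changed mostly upward. Of 612 tested, 137 rose and 19 fell, with a median LFC of 0.49. That is 25.5% SDE, under the 49.2% of all genes tested. A mean of at least 10 counts was reached by 104 of these 612 members and by 17544 of the 36016 genes. Among members with a mean of at least 10 counts, 47 of 104 rose and 14 fell, which makes 58.7% SDE, against 76.6% SDE, with 35.5% up and 41.1% down, of the 17544 genes of every type above that mean. The 2 conditions did not overlap for 25 of these 104 members, against 45.5% of such genes. In bins of mean count the members were close to other genes at low abundance: under 1 count 7.51% of members and 7.40% of all genes rose, and from 1 to 10 counts 31.6% and 30.7%. From 10 to 100 counts 39.8% of members and 48.0% of all genes rose, with 53.0% and 64.6% SDE in either direction. Over 100 counts 14 of 21 members rose and 3 fell, while 28.2% of all genes rose and 55.4% fell.

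Most of the 2286 had few or no estimated counts, which does not show absence of expression where sequence is shared with another gene. A total of 1227 had no count in any library, and 1951 had a mean under 1. Counts in 1 condition only were seen for 362 members in nutlin and 85 in vehicle, and over all genes for 6152 and 1642. The 10 most abundant members held 40.8% of the counts of this set, and 21 held 61.3%.

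Duplicated genes share sequence, and the counts of this set lay mainly on members that are hard to tell from a relative. The 852 members with under 50% of their 31-mers unique among the genes with values held 80.6% of the counts, and the 889 with at least 90% unique held 5.29%. SDE members were nonetheless found at every level of uniqueness: 25% of those tested under 10% unique, 30.7% from 10% to 50%, 22.9% from 50% to 90% and 23.2% from 90%. In each of these ranges at least 23 members rose and at most 9 fell.

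NSFP1, DDX12P and TNXA are members whose results turn on close relatives. The stretches shown were picked for at least 1 but few differences from each relative, so their closeness was set by the choice. Over its whole length, DDX12P shares 60.1% of its 31-mers with DDX12B. Below is an 81-base stretch of NSFP1 (chr17:46475270-46475350) and the coding stretch of NSF it resembles (chr17:46692973-46693053), then a stretch of DDX12P (chr12:9437473-9438074, minus strand, across a splice junction) with those of DDX12B (chr12:9293847-9294448) and DDX11 (chr12:31083998-31084599), and a stretch of TNXA (chr6:32012282-32012362, minus strand) with that of TNXB (chr6:32045136-32045216, minus strand). Capitals mark bases that differ from the pseudogene named first.
NSFP1: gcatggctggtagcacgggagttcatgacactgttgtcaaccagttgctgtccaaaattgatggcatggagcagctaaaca
NSF: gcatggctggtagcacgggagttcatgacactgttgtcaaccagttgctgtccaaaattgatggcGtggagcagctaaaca
DDX12P: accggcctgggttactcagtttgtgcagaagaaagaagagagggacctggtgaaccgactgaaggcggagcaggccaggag
DDX12B: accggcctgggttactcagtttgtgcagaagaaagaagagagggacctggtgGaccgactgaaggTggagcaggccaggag
DDX11: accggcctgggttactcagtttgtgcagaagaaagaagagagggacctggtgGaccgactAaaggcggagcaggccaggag
TNXA: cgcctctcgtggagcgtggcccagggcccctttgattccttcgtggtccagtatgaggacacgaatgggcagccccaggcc
TNXB: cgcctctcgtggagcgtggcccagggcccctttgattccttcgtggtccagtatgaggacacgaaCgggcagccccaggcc
The stretches differ at 1 base between NSFP1 and NSF, at 1 between TNXA and TNXB, and at 2 between DDX12P and each relative. An estimated count for such a member depends on how kallisto divided the reads that fit both.

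Among the 10 most abundant members of this set, 7 rose and 3 fell. All 10 had a mean over 100 counts, and of all genes above that mean 28.2% rose and 55.4% fell. The most abundant member, ENSG00000273825 on chromosome 1, had 14.4 to 22.0 CPM in vehicle (median 19.8) and 30.5 to 40.9 in nutlin (median 35.4). The groups did not overlap, with an LFC of 0.90 (SE 0.07, edgeR, adjusted p = 2.33e-13). Only 5.37% of its 31-mers were unique. DUX4L50, a relative of the DUX4 homeobox genes on chromosome 9, had 11.1 to 13.9 CPM in vehicle (median 12.4) and 29.5 to 36.9 in nutlin (median 33.7). Each nutlin sample was above each vehicle sample, with an LFC of 1.41 (SE 0.05, edgeR, adjusted p = 9.63e-21) and 81.8% of 31-mers unique.

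Pseudogenes of the subtelomeric WASH family, named after an actin-regulating protein, and of PKD1, the gene of polycystin-1, moved less. WASH8P had an LFC of 0.36 (SE 0.05) and WASH9P of 0.18 (SE 0.06), with overlapping groups in both. PKD1P1 (LFC 0.86, SE 0.18) and PKD1P2 (LFC 0.70, SE 0.08) lay near PKD1 itself (LFC 0.65), also with overlapping groups. PKD1P1 shares 87.6% of its 31-mers with the pseudogene PKD1P3 (LFC 0.87), and PKD1P2 shares 81.8% with PKD1P5 (LFC 0.93). MSTO2P, from the mitochondrial distribution gene MSTO1, fell by 0.25 on the log2 scale (SE 0.06), beside −0.20 for MSTO1, with which it shares 88.7% of its 31-mers.

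NSFP1 derives from NSF, an ATPase of vesicle fusion, and shares 95.7% of its 31-mers with it. It had 5.35 to 13.5 CPM in vehicle (median 8.19) and 17.2 to 24.0 in nutlin (median 20.7). Its groups did not overlap, with an LFC of 1.22 (SE 0.10, edgeR, adjusted p = 2.67e-12), against 0.30 (SE 0.04) for NSF. The log2 ratio of the pseudogene to NSF rose by 0.94 (permutation test, adjusted p = 1.44e-04 over 36 pairs).

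Among the members that fell were relatives of DDX11, a DNA helicase of the iron-sulfur group that works in chromatid cohesion. DDX12P had 19.4 to 24.1 CPM in vehicle (median 22.8) and 5.26 to 7.91 in nutlin (median 6.04). No nutlin sample reached the vehicle range, with an LFC of −1.87 (SE 0.07, edgeR, adjusted p = 5.73e-21). DDX12B had 30.2 to 34.4 CPM in vehicle (median 31.2) and 12.2 to 16.7 in nutlin (median 14.3), with an LFC of −1.13 (SE 0.05, edgeR, adjusted p = 4.2e-18). DDX11 fell too, by 1.53 on the log2 scale (SE 0.04), and 58.3% of the 31-mers of DDX12B occur in it.

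By the rule for the largest changes, 7 members that fell could be named, and 5 of them lie on chromosome 12. DDX12B, DDX12P, ENSG00000278635 and ENSG00000256673 are the 4 members with values in the stretch chr12:9277235-9448229. The fifth, ENSG00000270926, begins 306 bases past the end of DDX11. ENSG00000278635 (LFC −1.80, SE 0.19), ENSG00000270926 (−1.67, SE 0.15) and ENSG00000256673 (−1.64, SE 0.20) each had a median between 1.88 and 2.39 CPM in vehicle and between 0.532 and 0.701 in nutlin, without overlap of the groups. The other 2, TRIM60P18 and VN1R81P, lie inside zinc finger genes on the same strand. TRIM60P18 shares 96.2% of its 31-mers with ZNF736 (LFC −1.52 against −0.50), and VN1R81P shares all of its own with ZNF714 (−1.12 against −0.70).

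Of 18 members that met the same rule upward, the 8 with the largest LFC had a median of at most 1.10 CPM in vehicle. ENSG00000279208 on chromosome 21 was the most abundant, with 0.763 to 1.86 CPM in vehicle (median 1.10) and 18.1 to 28.3 in nutlin (median 25.8). The nutlin range lay far above that of vehicle, with an LFC of 4.26 (SE 0.11, edgeR, adjusted p = 2.33e-24). ENSG00000248583 on chromosome 4, which shares 61.3% of its 31-mers with it, had an LFC of 4.23 (SE 0.19). Reads that fit both members are divided between them, so these are not separate observations of a change.

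ANKRD18CP and ANKRD20A9P are copies of ankyrin repeat genes. ANKRD18CP had 0.0661 to 0.233 CPM in vehicle (median 0.145) and 3.28 to 5.23 in nutlin (median 4.13). Its groups were far apart, with an LFC of 4.82 (SE 0.18, edgeR, adjusted p = 1.67e-20), and ANKRD18B, which shares 20.5% of its 31-mers, rose with an LFC of 2.61. ANKRD20A9P had 11 counts over all vehicle libraries and 406 over all nutlin libraries, an estimated 41.1-fold difference per matched count (95% exact counting interval 22.7 to 83.0). ENSG00000251520 on chromosome 1 had a median of 0.464 CPM in vehicle and 7.99 in nutlin (LFC 4.20, SE 0.18), with 77.1% of its 31-mers unique.

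TNXA and ENSG00000229836, the members with the largest LFC, lie in the major histocompatibility region of chromosome 6. The remaining member of the 8, SNX18P8 on chromosome 9, is described with the pairs below. TNXA is a truncated copy of TNXB, the gene of the extracellular matrix protein tenascin-X, and shares 91.3% of its 31-mers with it. It had 5 counts in vehicle, from 2 of 10 libraries, and 352 in nutlin, from all 10, a ratio of 78.4 (95% exact counting interval 33.3 to 243). Its LFC of 5.77 (SE 0.38) moved to 7.21 without vehicle replicate 11. TNXB rose as well, from 0.234 ± 0.237 to 3.43 ± 0.64 CPM (LFC 3.80). ENSG00000229836, a member of 306 bases with all of its 31-mers unique, had 3 counts in 2 vehicle libraries and 202 in the 10 nutlin libraries. The ratio was 75 (95% exact counting interval 25.3 to 367), and the LFC of 5.54 (SE 0.39) moved to 6.37 without vehicle replicate 8. These intervals cover counting error only.

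**Figure D4:**
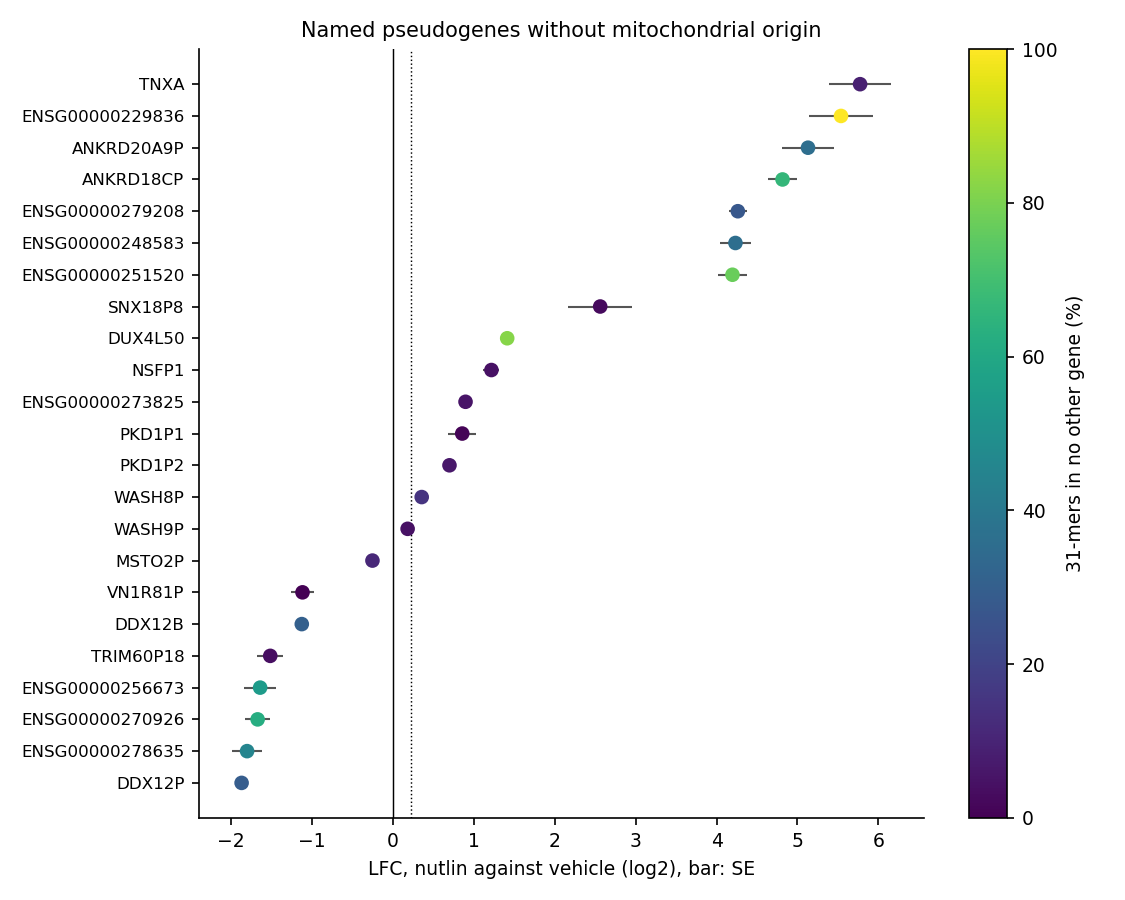
LFC of nutlin against vehicle with SE for 23 members without a mitochondrial name, the 10 most abundant and those with the largest changes in each direction, coloured by the percent of 31-mers that occur in no other gene with values. The dotted line is the median LFC of all genes tested, 0.22. Members that rose reach 5.77 (TNXA), those that fell reach −1.87 (DDX12P), and most have a low share of unique 31-mers.

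Unique 31-mers were counted against the transcripts of genes with values, not against introns or mtDNA. By that count, 13 members with a mean of at least 10 counts had at least 90% unique 31-mers. Of these, 8 were SDE, 6 higher and 2 lower in nutlin, where 76.6% of all genes with such a mean were SDE. Besides ENSG00000229836, the risers were DDX20P1 (LFC 1.56), MCF2L2P1 (1.08), ENSG00000250869 (0.78), LAMB2P1 (0.68) and ENSG00000271664 (0.57). H2BW3P, a copy of an X-linked testis histone H2B gene, fell from a median of 2.22 CPM (1.01 to 2.91) to one of 0.713 (0.533 to 1.29), with overlapping groups and an LFC of −1.49 (SE 0.18, edgeR, adjusted p = 2e-08). The olfactory receptor pseudogene OR6R1P had an LFC of −1.14 (SE 0.24, edgeR, adjusted p = 1.71e-04).

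By family, olfactory receptor pseudogenes were the most numerous, with 355 members, of which 244 had no count in any library. Of the 42 tested, 11 (26.2%) rose and 1 fell, near the 27.9% of all genes tested that rose. Among them OR7E12P had an LFC of 1.34 (SE 0.13) with 240 counts in vehicle and 624 in nutlin, and OR6R1P was the one that fell. Histone pseudogenes were 9, of which 6 were tested, 4 rose and 1 fell (83.3% SDE, beside 49.2% of all genes tested). H2AC5P, in the histone cluster of chromosome 6, had 5 counts in vehicle and 122 in nutlin (LFC 4.26, SE 0.44), and H3P4 had 24.3 and 108 (LFC 2.14, SE 0.36). Copies of the glucuronidase gene GUSB were 8 tested of 11, of which 1 rose (12.5%), and pheromone and taste receptor copies (VN1R and TAS2R) were 9 tested of 23, with 1 up and 1 down (22.2% SDE). Cytochrome P450, HLA, keratin, zinc finger (ZNF), GOLGA, NBPF, FAM, USP17L and protocadherin copies and antigen receptor segments gave between 0 and 2 SDE members each, and metallothionein copies were 0.

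Pseudogenes could also be set against the gene they are named after, which answers whether both changed alike. A protein-coding parent was found by name for 531 members, and 36 pairs had a mean of at least 10 counts in both genes. In 16 pairs the log2 ratio of pseudogene to parent differed between conditions at 5% FDR, rising in 15 and falling in 1 (permutation tests on log2 of CPM + 0.1, adjusted over 36 pairs). Among the pseudogenes 17 were SDE upward and 1 downward, whereas of the parents 18 counted upward and 14 downward, a parent being counted once for each of its copies. Of all genes with a mean from 10 to 100 counts, 48.0% rose and 16.6% fell. Over 100 counts, 28.2% rose and 55.4% fell. Whether a rare gene set against an abundant one gives a rising ratio outside these pairs was not tested. In 16 of the 36 pairs the parent was the gene with which the pseudogene shared the most 31-mers.

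The 5 largest differences included parents that fell while their copy did not. BRCA1P1 is an 80-base member in the span of BRCA1, the DNA repair gene, with 0.306 to 0.818 CPM in vehicle (median 0.631) and 0.339 to 1.16 in nutlin (median 0.609). Its groups overlapped almost wholly (LFC 0.15, SE 0.23, edgeR, adjusted p = 0.635), while BRCA1 had 134 to 158 CPM in vehicle and 22.7 to 32.9 in nutlin (LFC −2.37). The log2 ratio rose by 2.45 (permutation, adjusted p = 4e-05). BRCA1P1 also lies within ENSG00000267002, a lncRNA on the same strand with an LFC of 0.37, so that reads of the 2 may not be separable.

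DDX20P1, whose 31-mers are all unique, had 0.0636 to 0.563 CPM in vehicle (median 0.341) and 0.487 to 1.35 in nutlin (median 0.975). The groups overlapped at their edges, with an LFC of 1.56 (SE 0.28, edgeR, adjusted p = 2.11e-05). Its parent DDX20, an RNA helicase of the SMN complex, fell by 0.50 on the log2 scale, and the ratio rose by 1.87 (permutation, adjusted p = 4e-05), or by 0.92 with 1 CPM added to both in place of 0.1. TUBB2BP1 (LFC 0.74) rose against a fall of 0.75 in the beta-tubulin gene TUBB2B, and its ratio rose by 1.39. GUSBP13 (LFC 0.64) shares 94.9% of its 31-mers with another pseudogene, GUSBP16, and its ratio to GUSB (LFC −0.63) rose by 1.30. SNX18P8 rose with an LFC of 2.56 (SE 0.40) and its parent, the sorting nexin gene SNX18, with 0.42 (SE 0.08). That ratio rose by 2.03 (permutation, adjusted p = 9.3e-04), and by 0.45 with the larger addition of 1 CPM. Only 2.37% of the 31-mers of SNX18P8 are unique, and 91.9% are shared with the pseudogene SNX18P4 (LFC 1.84). SNX18P8 also lies within ENSG00000240240, a lncRNA on the same strand with an LFC of 1.27, so that reads of these genes may not be separable.

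The 1 pair with a falling ratio was PSPHP1 and the phosphoserine phosphatase gene PSPH. PSPHP1 fell by 0.60 on the log2 scale while PSPH had an LFC of 0.11, and the ratio fell by 0.70 (permutation, adjusted p = 4e-05). Pairs that share most of their sequence differed in outcome. Besides NSFP1, TCAF1P1, with 93.1% of its 31-mers in TCAF1, passed with a ratio difference of 0.30 (permutation, adjusted p = 0.0108). NAIPP2, with 99.1% of its 31-mers in NAIP, had a ratio difference of 0.02 (permutation p = 0.826) and OCLNP1, with 90.4% in OCLN, one of 0.05 (permutation p = 0.606), and neither passed.

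**Figure D5:**
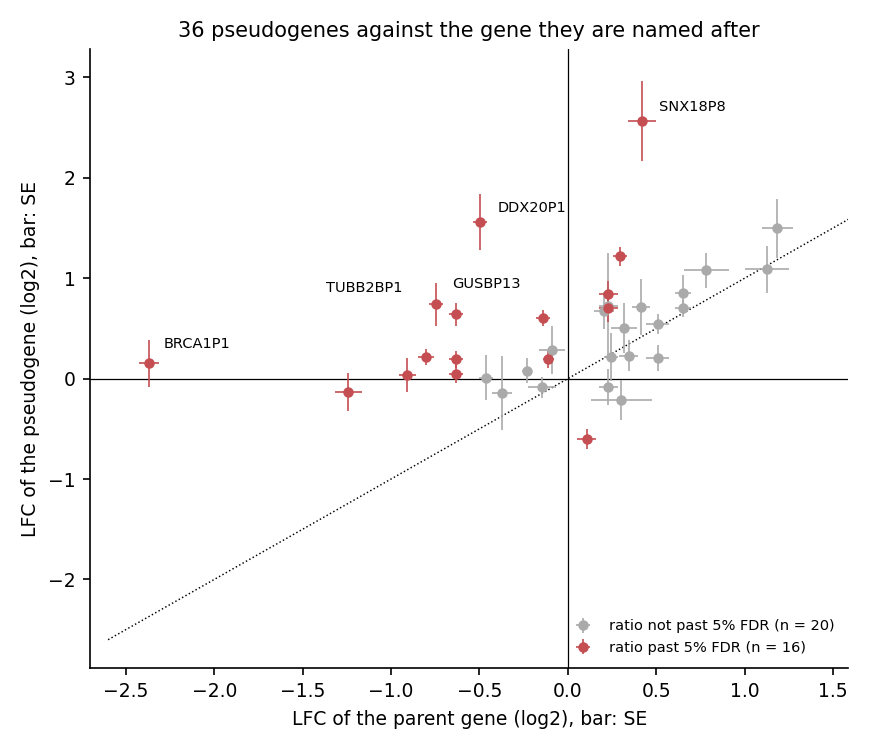
LFC with SE of 36 pseudogenes against the LFC with SE of the gene each is named after; the dotted line marks equal change. Of the 16 pairs whose ratio differed at 5% FDR, 15 lie above the line and 1, PSPHP1, lies below it.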

How the data were processed

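RNA-seq values of 20 NGP samples (10 vehicle, 10 nutlin) were used, with condition and replicate number taken from the sample titles. The labels call them separate samples of a line, and the p-values measure the spread between these cultures only. Per the labels and the study's methods, paired 75 nt reads of stranded poly(A) libraries were quantified by the authors with kallisto v0.42.4 on Ensembl release 85 transcripts of hg38. For each of 198968 transcripts the authors deposited the estimated count, with no normalization, the effective length in bases, and the TPM, which is scaled by effective length and library size. Whether kallisto was run with a strand setting is not given in the sources used here.

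Transcripts were matched by unversioned identifier to GENCODE release 44, a later release, and 7862 were left out as unmatched. Of the 2451 members, 2449 have 1 transcript. Estimated counts were summed per gene and rounded. All 36016 genes, whatever their type, whose total reached 1 count under vehicle and under nutlin were fitted with edgeR 4.0.16 in R 4.3.3 (quasi-likelihood test, TMM, condition only) and Benjamini-Hochberg adjusted over all of them at 5% FDR. TPM served for levels between genes. Shares and pseudogene-to-parent ratios were tested with two-sided permutation tests (100000 resamples), and the shares adjusted over 4 tests rather than the 5 planned, since the ratio of copies to mtDNA genes could not be computed. Nuclear mitochondrial copies were recognised by symbol. Uniqueness was counted over 31-mers of both strands among the transcripts of genes with values, and identity by alignment of each copy to the hg38 mtDNA gene. Printed sequences and positions are from GENCODE release 44 and hg38.

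Named members were the 10 mitochondrial copies and the 10 others with the largest mean count, up to 8 others in each direction with the largest absolute LFC among SDE members with a mean of at least 10 counts and no overlap of the groups, and the 5 pairs with the largest ratio difference. PSPHP1, NAIPP2, OCLNP1, TCAF1P1, the 7 SDE copies outside the block and the members named under uniqueness and family were named after their values were seen. Members and lists were chosen with earlier results of these data known. On simulated counts with 200 changed genes, the fit recovered 193 with 7 false calls among 34813 genes tested. The changed genes had a mean of at least 10 counts and an absolute LFC of at least 1. Recovery of rarer members or smaller changes was not tested. The simulated spread depended on abundance alone. Error control where, as in these data, 49.2% of genes are SDE was not tested either. Alternatives were DESeq2 1.42.0 size factors and test, limma 3.58.1 voom, other filters, an effective length offset, 1% FDR, TPM, other denominators, uniqueness and overlap filters, a replicate block and leaving out each sample. DESeq2 and limma ran in R. The permutation tests ran in numpy 2.4.6 and the exact counting intervals in scipy 1.17.1 (Python 3.11.15). A further gene is not reported here.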

Additional observations from a re-analysis of the deposited data

Results flagged for a closer look

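Values were examined in 82 groups of 10 samples for a sample far from its group, a check that chance alone would flag in about 1 of 20 groups, and 3 samples stood out. The share of counts on unprocessed pseudogenes was 2.78% in nutlin replicate 4, the highest of its group, and the next highest nutlin sample had 2.57%. TNXA was at 0.306 CPM in vehicle replicate 11, where the next highest vehicle sample had 0.0563 CPM. ENSG00000229836 was at 0.110 CPM in vehicle replicate 8, against 0.0585 CPM in the next highest vehicle sample. The last 2 are values of a few counts in groups whose other libraries were mostly at 0.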

How the results depend on the processing

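All shares and calls of the class rest on estimated counts of sequences that other genes share, and depth limits members under about 10 counts. Of the SDE counts, 170 for the class became 76 under filterByExpr, 156 for the members without a mitochondrial name became 65 under filterByExpr, 235 with no filter and 77 among members with at least 50% unique 31-mers, all of which change the genes tested. The filterByExpr filter moved the part of the class's calls that were upward from 80.6% to 68.4%. Without the 7 copies of the chromosome 1 block, an alternative added after seeing the data, the class share reversed to a rise of 0.0221 percentage points. Leaving out 1 sample gave 153 to 169 SDE members of the class, 13 to 15 mitochondrial copies and 138 to 156 others, and differences of share of −0.648 to −0.584 points for the class, −0.671 to −0.607 for mitochondrial copies, 0.0223 to 0.0235 for the others and −1.25 to −1.19 for mitochondrial copies within the class. Same-numbered samples showed correlations of deviations between −0.0375 and 0.0493, so the numbers were not taken to pair samples. With the replicate block over the 16 samples with shared numbers, 130 members of the class, 12 mitochondrial copies and 118 others were SDE, against 151, 14 and 137 in the same samples without it. No SDE member named by the rule changed direction or its side of 5% FDR under the alternatives that gave it a value. BRCA1P1, which was not SDE in any of them, changed sign in the 16 samples with shared numbers, with the block and without it. At 1% FDR WASH9P (edgeR, adjusted p = 0.0152) no longer passed. Of the 14 SDE mitochondrial copies, MTCO3P29 lost its call with DESeq2 size factors, limma voom, no filter, the replicate block, the same 16 samples without it, 1% FDR and 13 of 20 samples left out in turn, and had no adjusted p in the DESeq2 test. MTND5P25 lost its call with the replicate block, and filterByExpr left MTCO3P29, MTND5P25 and MTND5P7 untested. The copies per 1000 counts of mtDNA genes, and the alternatives for that ratio, were not run, since 0 of 37 mtDNA genes had a value.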
